A study of Mus musculus with 8 samples.

Results

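The strong peaks are the places in the mouse genome where Foxk1 immunoprecipitation gave the highest deposited values in MEFs, fibroblasts grown from mouse embryos. They were chosen by the signal value in the deposited peak list, at 100 or more, a limit met by 426 of 28933 peaks (1.47%). The remaining 28507 peaks served for comparison. The series comprised 3 Foxk1 immunoprecipitations, 3 with control IgG and 2 input libraries of the same untreated cells, grown in DMEM. Genotype, strain and passage of the cells are not given in the labels. The track line of the list names a single comparison, Foxk1 against input on the mm9 assembly. Since the individual libraries have no values in it, no replicate error can be attached to any value, read depth is unknown, and enrichment shared with IgG cannot be told apart. The signal value is a score of unstated scale. The strong peaks were picked with it, so signal values are given as descriptions and no test was made. Peaks of 1 list are not replicates, and differences between strong and other peaks in position or neighbours were likewise described and not tested.

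Foxk1 is a forkhead transcription factor, which contacts DNA through a winged-helix domain, and the classic forkhead element contains the letters GTAAACA. Foxk1 is best known as a repressor that recruits Sin3 complexes, and it has been tied to the control of autophagy genes, of glycolysis and of cell growth. Most transcription factors are found both at gene starts and at distal elements, and stronger enrichment can come from more cells with the site occupied, from longer occupancy or from better crosslinking, which a peak list does not separate.

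Sequence could not be read under the peaks, because the coordinates are mm9 and a genome of that build was not used here. Promoters of 3 genes whose loci carry strong peaks are shown instead, to let the reader see the sequence at the gene start. They come from RefSeq (GRCm38.p6) and were matched by gene symbol alone. Each gives the 250 bases before the annotated start, 5′ to 3′ on the strand of the gene, which is plus for Per1 and minus for Junb and Sqstm1. Per1 has several annotated starts and the most upstream one is shown. Capitals mark matches, on either strand, to the motifs named after the sequences. Whether a peak overlaps these windows was not measured, and their GRCm38 positions are not set beside the mm9 peaks.
Per1: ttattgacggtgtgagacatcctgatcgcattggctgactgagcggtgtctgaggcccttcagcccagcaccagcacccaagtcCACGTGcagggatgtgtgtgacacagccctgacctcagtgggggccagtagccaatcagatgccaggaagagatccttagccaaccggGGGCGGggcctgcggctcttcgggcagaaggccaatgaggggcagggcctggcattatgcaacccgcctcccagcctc
Junb: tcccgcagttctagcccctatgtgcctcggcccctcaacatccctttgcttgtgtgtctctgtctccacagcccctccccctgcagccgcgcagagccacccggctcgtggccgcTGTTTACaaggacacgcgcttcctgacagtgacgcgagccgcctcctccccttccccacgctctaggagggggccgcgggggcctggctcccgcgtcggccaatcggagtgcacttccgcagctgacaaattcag
Sqstm1: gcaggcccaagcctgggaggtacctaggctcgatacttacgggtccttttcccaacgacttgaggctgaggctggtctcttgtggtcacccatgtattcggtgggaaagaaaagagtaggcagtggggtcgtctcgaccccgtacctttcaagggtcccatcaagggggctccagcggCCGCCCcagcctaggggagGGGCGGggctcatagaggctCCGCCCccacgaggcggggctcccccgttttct

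The forkhead letters GTAAACA were found in the Junb window only, as the reverse complement TGTTTAC, with the match beginning 135 bases before the start. Of all 32851 RefSeq windows of this length, 3.17% held these letters. The Per1 window held the E-box CACGTG, beginning 166 bases before the start and present in 6.02% of all windows, and the GC box CCGCCC as its reverse complement, beginning 78 bases before the start. The Sqstm1 window held the GC box at 3 places, which began 72, 53 and 33 bases before the start. At least 1 GC box was present in 32.7% of all windows. Neither the AP-1 motif TGANTCA, present in 6.75% of windows, nor the CRE motif TGACGTCA, present in 1.55%, was found in the 3 sequences. The E-box and GC box are the elements bound by bHLH factors such as CLOCK and by Sp1. Windows were also listed for Map1lc3b, Vmp1 and Met, and none of these held GTAAACA. The Met window held the AP-1 motif as TGAGTCA, beginning 54 bases before the start, the E-box, beginning 126 bases before it, and 3 GC boxes. The Map1lc3b window held 1 GC box, beginning 37 bases before the start, and the Vmp1 window held none of the 5 motifs. Letters are a description of the window, and 6 windows of genes picked with their peaks known give no share to compare.

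The highest peak, at 391, stood apart from the next, at 319, and below these the signal values of the strong peaks fell in smaller steps to the limit. Their median was 127, with 25th and 75th percentiles of 111 and 165, against a median of 17.6 (13.4 and 26.9) among all other peaks. A signal value from 100 to 120 was held by 171 of them, 120 to 150 by 118, 150 to 200 by 79, 200 to 250 by 44 and 250 or more by 14. The lowest 3 members had 100.1 on chromosome 19 from 19321189, 100.4 on chromosome 4 from 89152527 and 100.5 on chromosome 17 from 48095321. The highest 3 non-members had 99.99 on chromosome 19 from 5846466, 99.9 on the same chromosome from 3768707 and 99.8 on chromosome 13 from 55736131. Values on both sides of the limit thus lay close together. The first of these near misses lies in the locus of Neat1 and Malat1, a pair of abundant nuclear non-coding RNAs, and had 8 other peaks within 10 kb. All 426 strong peaks carried a q-value of 0.00014, the lowest in the list, so the q-value does not order them.

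**Figure D1:**
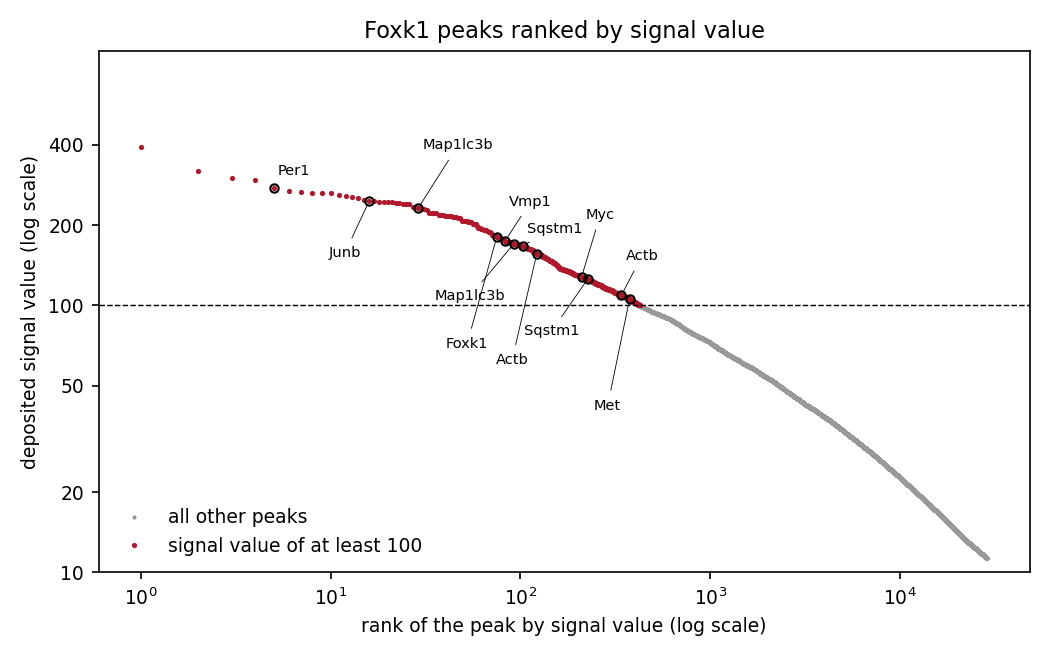
Signal value (log scale) of all 28933 peaks against their rank (log scale), with the 426 strong peaks in red. The limit of 100 is a dashed line, and the 12 strong peaks at or near 9 loci named in the text are circled. Labels give the name of the locus and not a measured assignment to the gene. The highest peak, at 391, is set off from the next at 319, and the curve passes through the limit without a visible step.

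The highest peak, with a signal value of 391, lay on chromosome 12, although that chromosome had only 5 strong peaks. Its single companion, meaning another summit within 10 kb, was 1049 bp away with a signal value of 15.8. The second highest peak (319, chromosome 19) had no companion and its nearest neighbour was 32943 bp away. The third (299.9, chromosome 17) had companions of 35.4 and 31.7, at 2341 and 7957 bp. At rank 4, on chromosome 11, stood the only one of the 20 highest peaks with another strong peak beside it. The peak at rank 8, on chromosome 7, was the most isolated of the 20, with its nearest neighbour 145423 bp away. Rank 9, on chromosome 19, had 5 companions, all on the side of lower coordinates and with signal values between 11.9 and 14.1.

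Ranks 11 to 20 had signal values between 243 and 260. On mm9 they were chr11:109473073-109473532 (260), chr5:140981186-140981645 (257), chr4:134486648-134487107 (254), chr7:52104256-52104715 (252) and chr15:58046229-58046688 (249). Next came chr8:87502543-87503002 (247), chr4:138942928-138943387 (246), chr11:102994135-102994594 (244), chr11:30854169-30854628 (244) and chr17:5138668-5139127 (243). Chromosome 11 thus held 5 of the 20 highest peaks. In these 10, 8 had a companion, and in the 20 highest 14 did. Companions were common throughout the list, at 57.5% of all strong peaks and 52.2% of all other peaks. The companions of ranks 11 to 20 were weak, from 11.8 to 43.5.

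Some strong peaks lie at loci whose place on mm9 is general knowledge, and these names are background, since an mm9 annotation was not used and distances to gene starts were not measured. They were named after their signal values were known, as an illustration and not a sample of the strong peaks. The strongest was at Per1, a core repressor of the circadian clock, on chromosome 11 from 68908138 to 68908597 (rank 5, signal value 276). It had 4 companions, all at higher coordinates, at 907, 1635, 2217 and 2811 bp. Their signal values were 17.3, 17.6, 19.9 and 22.9, the highest being 8.32% of the main peak. Per1 thus had 1 dominant summit followed by a string of weak ones. The peak at Junb, which encodes a subunit of the AP-1 transcription factor, was the rank 16 peak on chromosome 8 from 87502543 (247). Its companions had signal values of 11.8 at 1148 bp and 34.0 at 5832 bp.

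Several of the loci named here hold autophagy genes, and autophagy genes without a strong peak were not listed. In the neighbourhood of Map1lc3b, which encodes the LC3B protein of the autophagosome membrane, strong summits stood 11.9 kb apart on chromosome 8. The one from 124097183 had 232 (rank 29), the one from 124109119 had 169.9, and a weak peak of 14.6 lay between them. Distances to Map1lc3b were not measured, and other genes may lie nearer to either summit. At Sqstm1, which encodes the autophagy receptor p62, the peaks from 50026434 and 50023536 on chromosome 11 were 2898 bp apart. They had signal values of 168 and 126, so the weaker had 74.9% of the stronger. At Vmp1, which encodes a membrane protein needed for autophagosome formation and shares its locus with Mir21, the peak from 86442847 on chromosome 11 had 174. It had 3 companions, the highest at 73.2 and 5125 bp away. The locus was crowded, with 55 other peaks within 500 kb against a median of 21.5 for strong peaks. Whether autophagy genes were more frequent at strong peaks than at others was not tested.

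Foxk1 itself was among the loci with a strong peak: chr5:142916299-142916758 had a signal value of 180 and no companion, the nearest summit being 23339 bp away. It belonged to the densest group of strong peaks in any 1 Mb, in which 5 lay within 974 kb on chromosome 5. All peaks of that 1 Mb numbered 31. The signal values of the 5 ran from 109 to 180. That stretch includes Actb, the gene of the cytoskeletal protein beta-actin, with a strong peak on either side of it. Their summits, at 143579488 and 143817536, were far apart. Distances to Actb were not measured, and other genes may lie nearer. The peak from 143579258 had 156 and the peak from 143817306 had 109, and both had 8 companions, more than any other strong peak. The companions of the first reached 46.6 and those of the second 51.1. In the neighbourhood of Myc, the growth-controlling transcription factor gene, the peak from 61859914 on chromosome 15 had 128 and 1 companion of 11.8. Between Cav1, a caveolar coat protein gene, and Met, the gene of the hepatocyte growth factor receptor, the peak from 17358020 on chromosome 6 had 106 and 1 companion of 12.4.

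The observed share of strong peaks among the peaks of a chromosome varied, which was not tested. They made up 2.31% of the peaks on chromosome 19 (31 of 1342, exact binomial 95% interval 1.57 to 3.26), 2.12% on chromosome 17 (27 of 1273, 1.40 to 3.07) and 2.04% on chromosome 11 (43 of 2103, 1.48 to 2.74). The lowest autosomal shares were 0.69% on chromosome 12 (5 of 725, 0.22 to 1.60) and 0.82% on chromosome 13 (12 of 1468, 0.42 to 1.42). On X only 1 of 569 peaks was strong (0.18%, 0.0044 to 0.98). Intervals take peaks as independent, cover counting error only, and are too narrow where peaks cluster. The median of the 19 autosomes was 1.44%. The order depended on the limit: at 150 the highest autosome was chromosome 11, with 0.90%, and the lowest was chromosome 18, with 0.09% (1 peak). The intervals of chromosomes 12 and 19 overlapped narrowly, and those of most chromosomes included the 1.47% of the whole list. Chromosomes with more peaks per Mb tended to have a larger share of strong ones, across 20 chromosomes (Spearman's rho 0.74, Pearson's r 0.78; 0.70 and 0.72 over the 19 autosomes). The points share 1 list and 1 threshold, and the correlation is a description.

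In number, chromosome 11 had the most strong peaks, 43, followed by chromosome 6 with 41 and chromosome 5 with 35. Per Mb up to the last peak, chromosome 19 had 0.506 and chromosome 11 had 0.353, against 0.162 over all chromosomes. Chromosome 12 had 0.041 and X had 0.0060. The highest peak of a chromosome did not follow these numbers throughout. Chromosomes 19 and 11, with the most strong peaks per Mb, had high top values, 319 and 296. The top value was also high on chromosome 12 (391) with its 5 strong peaks and on chromosome 7 (264) with its 10. It was 241 on chromosome 6 and 230 on chromosome 1, with 20. Chromosome 18 had the lowest top value of the autosomes, 202, from 14941506 to 14941965, and X had 165 from 7299146. The top values of the others lay between 207 on chromosome 16 and 319 on chromosome 19. A signal value of 200 was reached by 58 of all 426 strong peaks. Among chromosomes sparse in peaks, 4 of the 10 on chromosome 7 and 2 of the 5 on chromosome 12 reached it, and the single one on X did not. Among denser ones, 8 of 43 did on chromosome 11, 5 of 31 on chromosome 19 and 3 of 41 on chromosome 6. These counts are small, and a link with peak density was not tested. Along each chromosome, mouse centromeres being at the start, 28.6% of strong peaks lay in the first part when it was cut into 3 equal parts, 35.2% in the middle and 36.2% in the last. For all other peaks these shares were 28.4%, 34.3% and 37.3%, and no shift along chromosomes was apparent.

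**Figure D2:**
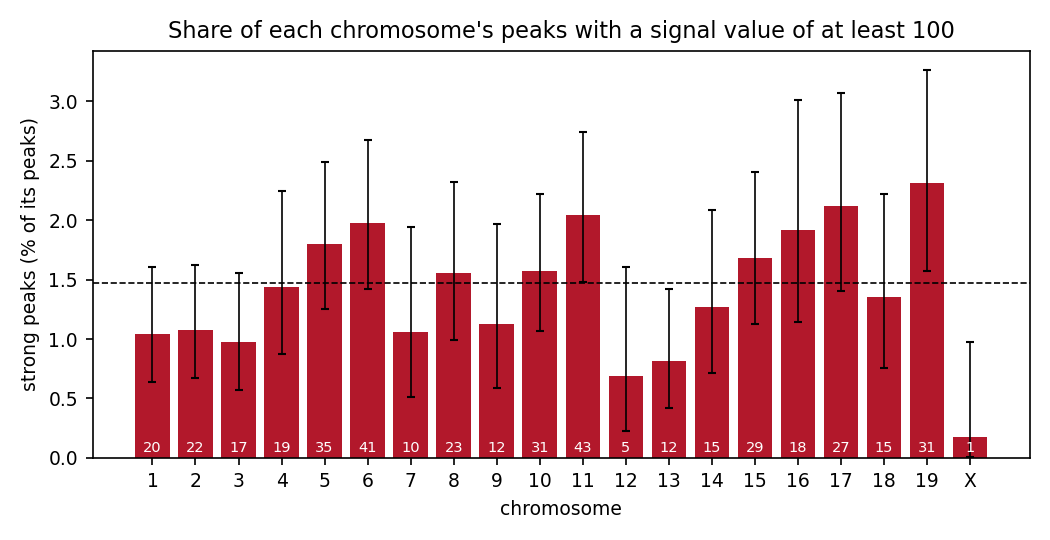
Strong peaks as a percentage of the peaks on each chromosome (bars, numbers of strong peaks in white), with exact binomial 95% intervals and the share over the whole list, 1.47%, as a dashed line. At this limit chromosome 19 stands highest at 2.31% and X lowest at 0.18%.

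A companion within 10 kb was present at 245 of the 426 strong peaks, or 57.5% (exact binomial 95% interval 52.7 to 62.3, counting error only). Among all other peaks the share was 52.2%. Strong peaks lie more often on chromosomes rich in peaks, and with the other peaks weighted to the chromosomes of the strong ones the share was 53.8%. Chromosome by chromosome the direction varied: of the 18 chromosomes with 10 or more strong peaks, the share was higher in the strong peaks on 12 and lower on 6. At the extremes it was 73.3% (11 of 15) against 50.7% on chromosome 14 and 27.3% (6 of 22) against 50.3% on chromosome 2. The excess of strong peaks with a companion was therefore small. With so few strong peaks per chromosome, whether it differed between chromosomes cannot be told.

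Within the list, the share with a companion rose with the signal value only up to about 50. It was 47.8% for signal values under 15, 53.7% from 15 to 25, 54.9% from 25 to 50 and 59.6% from 50 to 75. Above that it was 58.9% (75 to 100), 54.4% (100 to 120), 61.0% (120 to 150), 55.7% (150 to 200) and 62.1% (200 or more), and the intervals of these classes overlap. Strong peaks thus had about as many neighbours as peaks of 50 to 100. Shares at close range and of crowded peaks were also set side by side. A neighbour under 2000 bp away was found at 29.8% of strong peaks (127) and at 25.7% of others, without weighting to chromosomes. In the classes just below the limit it was as frequent, with 30.4% from 50 to 75 and 31.3% from 75 to 100. It was found at 44.8% of the 58 peaks with 200 or more and at 27.4% of the 368 between 100 and 200, a division looked at after the values were seen. At least 4 companions were present at 27 strong peaks (6.34%) and at 3.78% of others, likewise without weighting. The mean number of companions was 1.12 at strong peaks, 1.05 from 50 to 75 and 1.14 from 75 to 100.

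**Figure D3:**
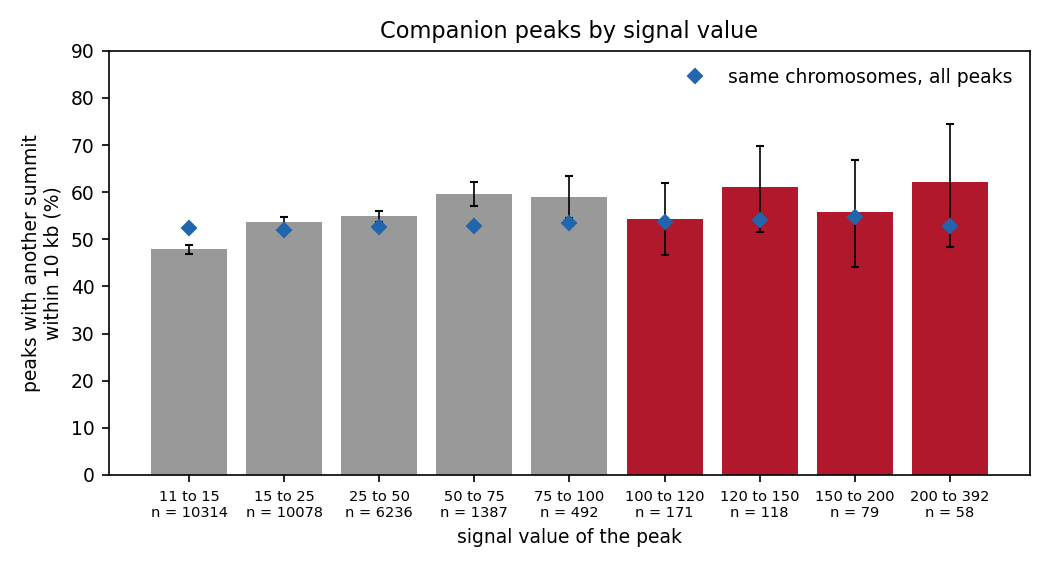
Percentage of peaks with another summit within 10 kb by signal value (grey, under 100; red, strong peaks), with exact binomial 95% intervals and, as diamonds, the share over all peaks weighted to the same chromosomes. The bars rise from 47.8% to 59.6% and then show no further steady rise.

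Because the strong peaks were picked for their height, their companions were bound to be mostly weaker, and the following values are a description. In 238 of the 245 strong peaks with companions, every companion had a lower signal value, and in the median peak the strongest companion reached 0.19 of its value. The 459 other peaks that lay within 10 kb of a strong peak had a median signal value of 18.8 (25th and 75th percentiles 13.8 and 30.1). Peaks that had a companion but lay farther than 10 kb from any strong peak had a median of 18.3 (13.8 and 27.9), from 14423 peaks. These medians leave out the strong peaks that were themselves companions, in 7 pairs of strong peaks within 10 kb of each other. The highest companion of a peak, strong ones included, had a median of 27.2 at strong peaks and 23.0 at others. By distance, the median of the companions under 100 was 18.8 for the 28 companions whose peaks overlapped the strong one (under 460 bp), 17.6 for the 69 at 1000 to 2000 bp and 22.0 for the 170 at 5 to 10 kb. Their number per kb of flanking sequence, summed over all strong peaks, fell from 51.9 at 460 to 1000 bp to 34.5 at 1000 to 2000 bp. It was 17.0 at 5 to 10 kb. Under 460 bp it was 30.4, but the closest companion was 326 bp away, and that class includes the empty stretch. Its figure is therefore too low for the distances at which companions occurred. The same count was not made around other peaks. Among those, the nearest summit lay at 460 to 2000 bp in 20.5% and at 5 to 10 kb in 12.7%, against 23.2% and 11.7% of strong peaks. Companions lay at lower coordinates in 229 pairings and at higher ones in 247. Strings on 1 side, as at Per1, were not the usual layout: of 122 strong peaks with 2 or more companions, 47 (38.5%) had all on the same side, against 46.8% of other peaks with 2 or more.

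**Figure D4:**
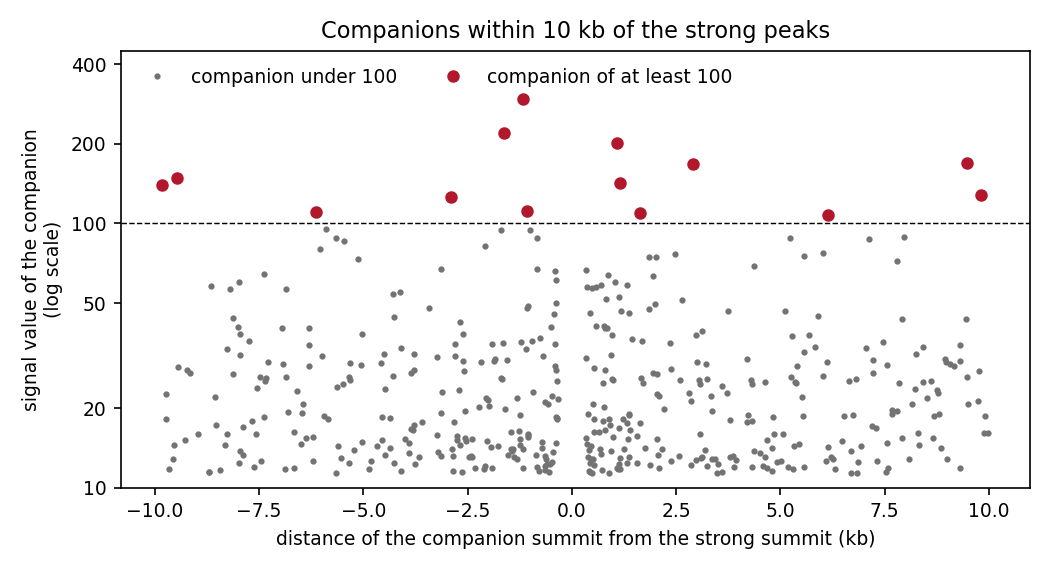
Signal value (log scale) of each companion against its distance from the strong summit in kb, with companions under 100 in grey and strong ones in red. Most of the 476 points lie far below the dashed limit of 100. None is closer than 326 bp to the strong summit, and beyond 460 bp the points thin out with distance.

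In 7 places a pair of strong peaks lay within 10 kb of each other. The closest was on chromosome 16, with summits at 4558778 and 4559865, 1087 bp apart, and signal values of 111 and 201. On chromosome 11 the rank 4 peak (296) and its neighbour (142) had summits at 120092969 and 120094133, 1164 bp apart. A pair on chromosome 19, at 21179310 and 21180947, had 219 and 109. In each of these 3 pairs 1 peak was far higher than the other. The pair at Sqstm1 was the fourth. The remaining 3 were more even in height: 110 and 108 on chromosome 6 (98747568 and 98753697), 149 and 169.6 on chromosome 19 (8946002 and 8955464), and 139.6 and 129 on chromosome 8 (10655339 and 10665157).

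At the other extreme, 181 strong peaks had no companion. No summit within 100 kb was found for 15 (3.52%), against 6.37% of other peaks, without weighting to chromosomes. The most isolated was on chromosome 4 from 153534760, with a signal value of 101 and its nearest neighbour 906 kb away. On chromosome 6 the peaks from 25759090 (138) and 103598868 (117) were 573 and 318 kb from the next summit. On chromosome 18 the peak from 14941506, the highest of that chromosome, was 328 kb away from it, and on chromosome 14 the one from 103498804 (121) was 246 kb away. High signal values were therefore found in empty stretches as well. Within 500 kb on either side, strong peaks had a median of 21.5 other peaks (25th and 75th percentiles 15 and 30), against 19 (12 and 27) for the rest. Means were 22.9 and 20.4, and 21.6 for the rest weighted to the same chromosomes.

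Neighbouring strong peaks were a median of 2.14 Mb apart (25th and 75th percentiles 0.595 and 6.96 Mb, 406 distances), and neighbours in the whole list 24.8 kb. So small a part of the list is bound to have longer distances, so this contrast does not show that strong peaks are dispersed. Of the distances between strong peaks, 24 (5.91%) were within 100 kb, and 21 exceeded 20 Mb. The longest stretches without a strong peak were 55.3 Mb on chromosome 2, between 56967364 and 112283886, 45.4 Mb on chromosome 7, between 89682704 and 135076144, and 41.3 Mb on chromosome 9, between 78471432 and 119804004. Chromosome 2 was not sparse in peaks, having 2045. Groups were found as well. On chromosome 11, 4 strong peaks lay within 629 kb around Sqstm1, from 49624748 to 50253476, with signal values between 119 and 168. On chromosome 6, 4 lay within 939 kb between 34267620 and 35206965, with values from 125 to 188. In windows of 5 Mb, chromosome 5 from 140981416 to 145082742 and chromosome 19 from 4012813 to 8955464 both had 9. The first 5 Mb held 96 peaks in all and the second 190.

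**Figure D5:**
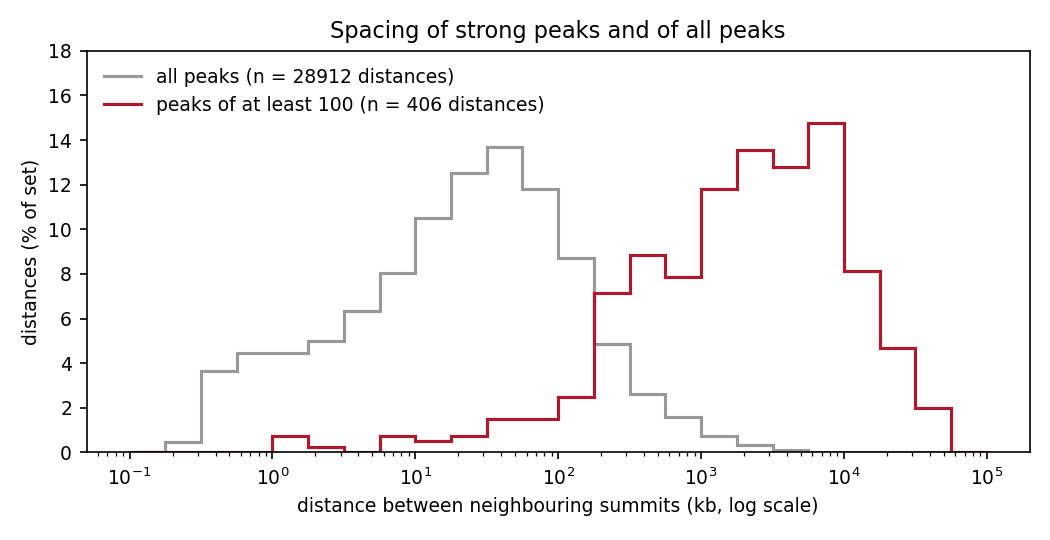
Distances between neighbouring summits (kb, log scale) as a percentage of each set, for all peaks (grey) and for the strong peaks (red, 406 distances). The strong peaks are a small part of the list and their distances centre on 2.14 Mb, those of all peaks on 24.8 kb.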

How the data were processed

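Bowtie and the mm9 assembly are named, per the submitters' processing notes, with the version not given in the sources used here. Caller, settings and any pooling of libraries are likewise not given. The deposited list holds for each peak a signal value (a score of unstated scale) and a q-value on a linear scale, as found in the values themselves. All peaks are 460 bp wide, and the summit is the start plus the deposited offset. Coordinates were written 1-based.

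Strong peaks had a signal value of 100 or more. The members, the limit and the lists were chosen with earlier results of these data known. Companions were other summits within 10 kb. Chromosome length was the last peak end. Intervals are exact (Clopper-Pearson) at 95%. Items named were the 20 highest peaks, each chromosome's top peak, 3 peaks on either side of the limit, pairs within 10 kb, and the 5 most crowded and 5 most isolated. Gene names are from general knowledge of mm9, with 9 loci of strong peaks named after values were seen. The counting code was tested on a made-up list. Other limits, windows and merging were tried. Software was Python 3.11.15, numpy 2.4.6, scipy 1.17.1, pandas 2.3.3 and matplotlib 3.10.9.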

Additional observations from a re-analysis of the deposited data

How the results depend on the processing

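The number of strong peaks was 426, and 423 after merging summits closer than 2000 bp. The share with a companion, 57.5% with a 10 kb window, was 45.8% with 5 kb (39.5% of other peaks) and 69.5% with 20 kb (66.8%), as the window itself sets it. After merging, an alternative chosen after seeing the data, it was 43.0% (36.4%). It moved less with a limit of 50 (59.1%, against 51.7% of peaks below that limit) or 150 (58.4%, against 52.3%). With overlapping peaks left out it also moved less (55.6%, against 49.9% of other peaks). The ratio of the highest to the lowest autosomal share of strong peaks was 3.35 (chromosomes 19 and 12). The pair was picked as the extremes, so the ratio exceeds 1 by choice and has no interval. At a limit of 150 it was 10.01, between chromosomes 11 and 18 and resting on 1 peak of chromosome 18, and at 50 it was 1.88, between chromosomes 19 and 12. The median distance between strong peaks was 8.68 Mb at a limit of 150, which keeps 137 peaks, and 2.24 Mb after merging. Motifs within 100 bases of summits were not run, as they need mm9 sequence. No paired analysis was possible because the list holds no value per replicate, and no replicate could be left out. With depth unknown, a stretch without a strong peak had none detected at this limit.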
